A study of Mus musculus with 188 samples.

Results

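The respiratory chain subunits were taken as every counted gene whose mouse symbol belongs to the Nduf (a, b, c, s or v), Sdh, Uqcr, Cox4 to Cox8 or Atp5 families, together with the protein-coding genes of the mitochondrial genome, and were read in all count tables of the series. The rule found 98 members among 25711 listed genes, 85 in the nuclear genome and 13 in the mitochondrial genome. Complexes were assigned by symbol alone, so that Ndufa4 and Ndufa4l2 are counted under complex I. Complex I (NADH dehydrogenase) had 37 nuclear and 7 mitochondrial members, complex II (succinate dehydrogenase) 4 and 0, and complex III (cytochrome bc1) 8 and 1. Complex IV (cytochrome c oxidase) had 18 and 3, and complex V (ATP synthase) 18 and 2. One of the 85, Atp5s, is a coupling-factor-like protein rather than a structural subunit of the enzyme, and the symbol Atp5o was carried by 2 identifiers, which are counted apart.

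The respiratory chain passes electrons from NADH and succinate through complexes I to IV to oxygen, and complex V uses the resulting proton gradient to make ATP. Its subunits come from both genomes: mitochondrial DNA is transcribed as long polycistronic RNAs by its own polymerase, whereas the nuclear genes have separate promoters at which NRF1, GABPA and YY1 are known regulators. Complexes II, III and IV carry heme groups, and neurons depend strongly on this pathway for ATP.

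The study exposed coronal brain slice cultures from C57BL/6J mice, young adults of both sexes by the study's methods and without any engineered allele, to human red blood cell products and sequenced bulk poly(A) RNA. In batch 1, 10 libraries each were untreated or had received heme-albumin at 12.5, 50, 200 or 400 µM or heme bound to hemopexin (hemeHpx) at 200 µM, all for 24 h. In batches 2 and 3, slices were untreated (10 libraries at 24 h, 9 at 48 h) or received free hemoglobin (Hb) at 200 or 400 µM (10 libraries each at each time), hemoglobin with haptoglobin (HbHp) at 200 µM (8 at each time) or 400 µM (4 at 24 h, 5 at 48 h), or haptoglobin alone (Hp) at 400 µM (12 at 24 h, 11 at 48 h). These 167 libraries had label-defined groups, and 21 others did not and entered no comparison. The labels of the hemeHpx libraries name hemopexin in one field and haptoglobin in another, and the treatment field was followed.

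Total counts per library ranged from 11038484 to 44199060 in batch 1 and from 15587938 to 54174784 in batches 2 and 3. All HbHp and Hp libraries were in batch 3, whereas the untreated libraries of that set were mostly in batch 2, and each library name of the set carries the prefix E1 or E2. Batch and prefix were terms of the fit, but only 2 untreated libraries at 24 h and 2 at 48 h came from batch 3. All HbHp libraries carry prefix E2, whereas most untreated libraries of the set carry E1. Both batch 3 and prefix E2 are shared with HbHp by 1 untreated library at each time, replicate 11 at 24 h and replicate 9 at 48 h. Library names carry codes that recur across treatments, but the labels do not say whether a code stands for an animal. The p-values therefore measure the spread between libraries, and counts of calls with the codes as a block are given further below. Neuronal, astrocytic, oligodendroglial and microglial marker genes were detected in every group, and in bulk tissue fewer cells of a type and less RNA per cell cannot be told apart.

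The 13 mitochondrial genes were not counted alike, which limits what can be read from them. In untreated slices of batch 1, mt-Co1, the catalytic core of complex IV, had a median of 10200 CPM (a gene's reads scaled by the library's total) per kilobase of transcript, mt-Cytb of complex III 6550 and mt-Nd1 of complex I 4570. On this same scale mt-Nd4l had 530 and mt-Nd6 184, while mt-Nd3 had 3.91, mt-Co3 0.123, and mt-Co2, mt-Atp6 and mt-Atp8 had 0. In raw counts, mt-Co1 had 211430 to 389212 per untreated library of batch 1, against 9 to 35 for mt-Nd3, 0 to 5 for mt-Co3, 0 to 3 for mt-Atp6 and 0 to 1 for mt-Co2 and mt-Atp8. Genes transcribed from the same polycistronic strand thus differed by several orders of magnitude in the tables.

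**Figure D1:**
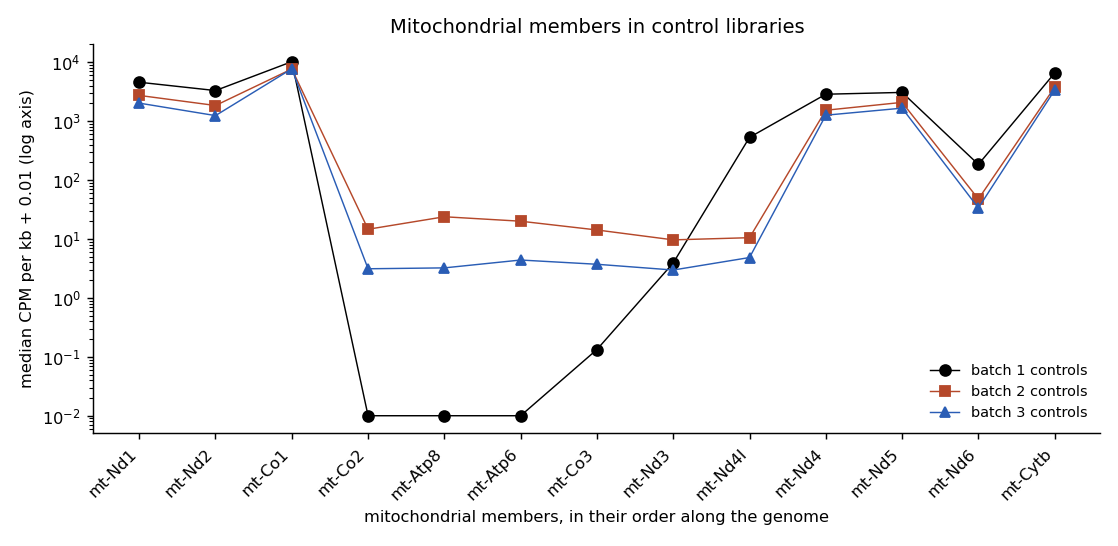
Median level of each mitochondrial member in untreated libraries of batches 1, 2 and 3, in CPM per kilobase of transcript plus 0.01, on a log axis. mt-Co1, mt-Cytb and mt-Nd1 are high in every batch, whereas mt-Co2, mt-Co3, mt-Atp6 and mt-Atp8 lie at or near 0 in batch 1 and between 14.2 and 23.8 in batch 2.

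The profile differed between batches for the low genes. mt-Atp6 had a median of 0 in batch 1, 20.0 in batch 2 and 4.38 in batch 3 (CPM per kilobase), and mt-Co2 had 0, 14.6 and 3.11. mt-Nd4l went the other way, with 530 in batch 1, 10.5 in batch 2 and 4.83 in batch 3. mt-Co1 had 10200, 7660 and 7720 on this scale. No level of a low mitochondrial gene is therefore compared between batch 1 and the other set below. Groups of batches 2 and 3 differ in their mix of these 2 batches, so their CPM and raw counts for low genes also carry the batch.

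Most of the low genes have a near-identical copy in the nuclear genome. In a search of the GENCODE M21 transcripts (GRCm38), 11 of 13 mitochondrial members and 41 of 85 nuclear members had an annotated copy of at least 90% identity over at least 100 bases. A copy of at least 99% identity over at least 90% of the longest annotated transcript was found for 5 mitochondrial members and 0 nuclear ones. These were mt-Nd3 (Gm28438, 99.71% over 345 bases), mt-Nd4l (Gm10222, 100% over 294), mt-Co2 (Gm28661, 100% over 681), mt-Co3 (Gm28437, 100% over 783) and mt-Atp6 (Gm10925, 100% over 678). The well-counted mt-Cytb matched its closest copy, Gm11410, at 92.907%, mt-Nd6 matched Gm11408 at 93.642% and mt-Co1 matched Gm13340 at 97.605%. mt-Nd4 had a copy of 100% identity over 63.6% of its length (Gm28439) and was well counted, and mt-Atp8 had no annotated copy and was at 0 in batch 1. Some nuclear members had near-identical copies over a smaller part of their longest transcript. Atp5g1 matched Gm10039 at 99.757% over 411 bases, Ndufb4 matched Ndufb4c at 100% over 390 and Ndufs5 matched BC002163 at 99.373% over 319. The pseudogene copies named here are not among the counted genes of either set. The part that shared reads have in the low counts was not tested.

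The stretches below show how far member and copy differ, from the first base aligned and with capitals at bases that differ between member and copy. In the first 60 bases, mt-Atp6 and Gm10925 differ at 0 positions and mt-Nd3 and Gm28438 at 1, whereas mt-Cytb and Gm11410 differ at 3 of 60 bases starting from the second.
mt-Atp6: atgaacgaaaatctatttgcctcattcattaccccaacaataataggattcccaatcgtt
Gm10925: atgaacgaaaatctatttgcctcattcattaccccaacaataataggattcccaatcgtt
mt-Nd3: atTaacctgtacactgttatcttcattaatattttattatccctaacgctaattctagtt
Gm28438: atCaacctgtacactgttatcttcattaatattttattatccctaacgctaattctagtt
mt-Cytb: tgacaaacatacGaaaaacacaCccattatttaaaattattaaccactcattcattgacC
Gm11410: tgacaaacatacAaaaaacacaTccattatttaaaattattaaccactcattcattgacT

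Because of these counts, the level of the mitochondrial members was summarised over the 7 genes that reached 10 CPM on average in both sets, a choice made after the counts were seen: mt-Nd1, mt-Nd2, mt-Nd4, mt-Nd5, mt-Nd6, mt-Cytb and mt-Co1. Tests across all genes included every member that passed the count filter. In batch 1, 92 members were tested among 15554 genes, 83 nuclear and 9 mitochondrial. mt-Co2, mt-Co3, mt-Atp6, mt-Atp8 and the nuclear Cox7b2 and Cox8c, isoform genes of complex IV, fell below the filter there. In batches 2 and 3, 95 members were tested among 16473 genes, 82 nuclear and 13 mitochondrial.

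The 13 mitochondrial genes took a median of 4.03% of all counts in the untreated libraries of batch 1, with a range from 3.07% to 5.57%. The medians of the treated groups were lower, at 3.01% with 12.5 µM heme-albumin, 3.26% with 50 µM, 3.65% with 200 µM, 3.25% with 400 µM and 3.22% with hemeHpx. The ranges of all 6 groups overlapped. In batches 2 and 3 the group medians lay between 2.51% and 2.71%, and the medians of the nuclear members lay between 0.66% and 0.77% in every group of the series.

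On a log2 CPM scale, the mean of the 7 mitochondrial genes in untreated libraries of batch 1 had a lowest value of 11.21, a median of 11.63 and a highest value of 12.12. With 400 µM heme-albumin these values were 10.93, 11.30 and 11.83, and with hemeHpx 11.12, 11.28 and 11.77. The nuclear members' mean log2 CPM was 5.54, 5.60 and 5.88 in untreated libraries (lowest, median and highest) and 5.51, 5.63 and 5.90 with 400 µM heme-albumin. The mitochondrial medians were thus lower in treated slices with overlapping ranges, while the nuclear means covered nearly the same range.

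**Figure D2:**
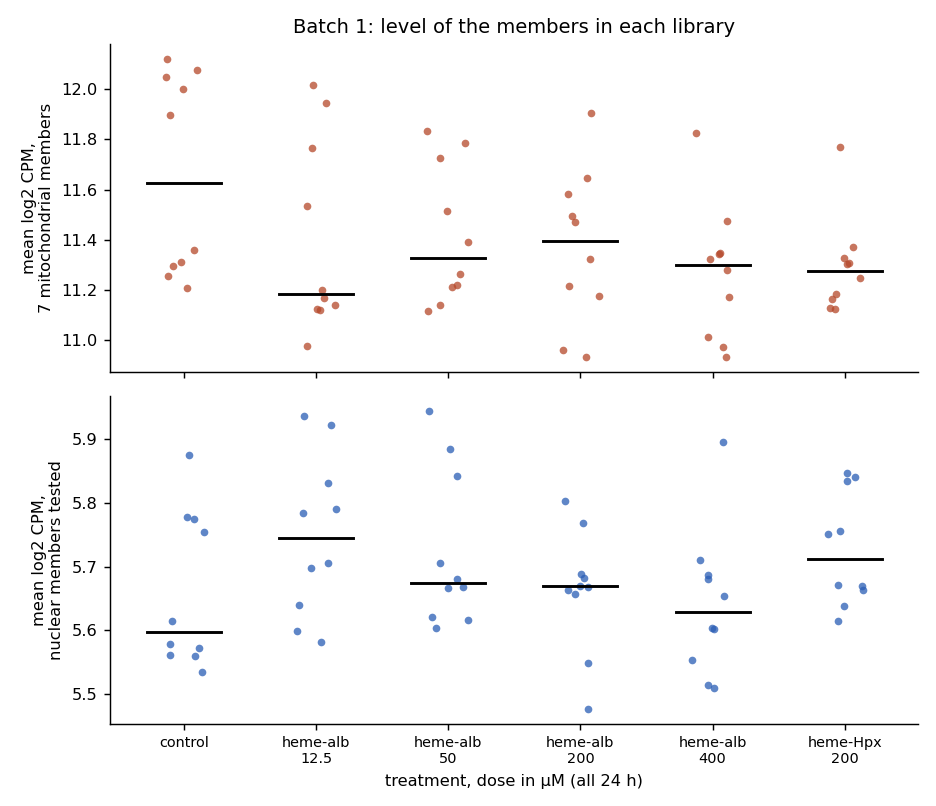
Mean log2 CPM of the 7 mitochondrial members and of the 83 nuclear members tested in each library of batch 1, by treatment, with a bar at the group median. The untreated libraries form a higher and a lower set in the mitochondrial panel, every treated group overlaps with the lower set, and 12.5 and 200 µM heme-albumin also reach the higher one.

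Heme-albumin was tested against untreated slices at 4 doses to ask how heme on its low-affinity carrier changes transcription. With edgeR's quasi-likelihood test and Benjamini-Hochberg adjustment over all genes, 0 of 83 nuclear and 0 of 9 mitochondrial members passed at 12.5 µM, where 0.0386% of all genes were called higher and 0.00643% lower. At 50 µM the counts were again 0 and 0, against 0.45% of genes higher and 0.0129% lower. At an unadjusted p under 0.05, 8 nuclear and 2 mitochondrial members lay below that threshold at each of these doses, and DESeq2 called none of either kind.

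At 200 µM, 2 mitochondrial members fell and 0 nuclear members passed (5 with an unadjusted p under 0.05, and 1 lower by DESeq2), against 6.98% of genes called higher and 6.6% lower. mt-Nd6, the complex I subunit transcribed from the other DNA strand than the remaining mitochondrial subunits, had 82.4, 95.1 and 115 CPM (lowest, median, highest) in untreated libraries and 61.9, 73.4 and 86.7 CPM at 200 µM. It fell by 0.39 on the log2 scale (SE 0.089, adjusted p = 0.00173, edgeR quasi-likelihood), with overlapping ranges. mt-Nd3 fell by 0.77 (SE 0.269, edgeR adjusted p = 0.0466), at counts that ranged from 9 to 35 in untreated libraries.

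At 400 µM, 7 of 9 mitochondrial members fell and 7 of 83 nuclear members fell, while 14.7% of all genes were called higher and 14.3% lower. The share of nuclear members called lower was below that of all genes, and 0 nuclear members were higher in edgeR's quasi-likelihood test and 0 in DESeq2. Their median log2 fold change was −0.03, against −0.01 over all genes tested, and 37 of 83 were positive. The 9 mitochondrial members had a median of −0.41, and all 9 were negative in each comparison of a heme treatment with untreated slices.

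mt-Nd5, a proton-pumping subunit of complex I, showed the lowest fold change among well-counted members at 400 µM. It had 3530, 5700 and 8920 CPM (lowest, median, highest) in untreated libraries and 3080, 3870 and 4840 CPM at 400 µM, and fell by 0.60 on the log2 scale (SE 0.180, edgeR adjusted p = 0.00781). mt-Nd2 fell by 0.58 (SE 0.205, edgeR adjusted p = 0.0283), from a median of 3430 to 2540 CPM. mt-Co1 fell by 0.31 (SE 0.113, edgeR adjusted p = 0.0349), with 12300, 16000 and 20500 CPM in untreated libraries and 11300, 13200 and 17300 CPM at 400 µM. The other 4 that passed were mt-Nd1, mt-Nd3, mt-Nd4 and mt-Nd6. mt-Cytb, at −0.35 (edgeR adjusted p = 0.0625), and mt-Nd4l, at −0.19 (edgeR adjusted p = 0.0832), did not pass.

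These mitochondrial differences moved with library size. The untreated libraries of batch 1 had a median total count of 16404294, against medians between 20415945 and 25519549 in the treated groups. The 5 untreated libraries with totals from 11038484 to 13393773 had mitochondrial means from 11.90 to 12.12 log2 CPM, and the 5 with totals from 19414814 to 29576977 had means from 11.21 to 11.36. The nuclear means of the same libraries lay between 5.54 and 5.58 in the former and between 5.62 and 5.88 in the latter. Among untreated libraries, the mitochondrial and nuclear levels thus each fell into ranges that did not overlap between small and large libraries, in opposite directions.

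**Figure D3:**
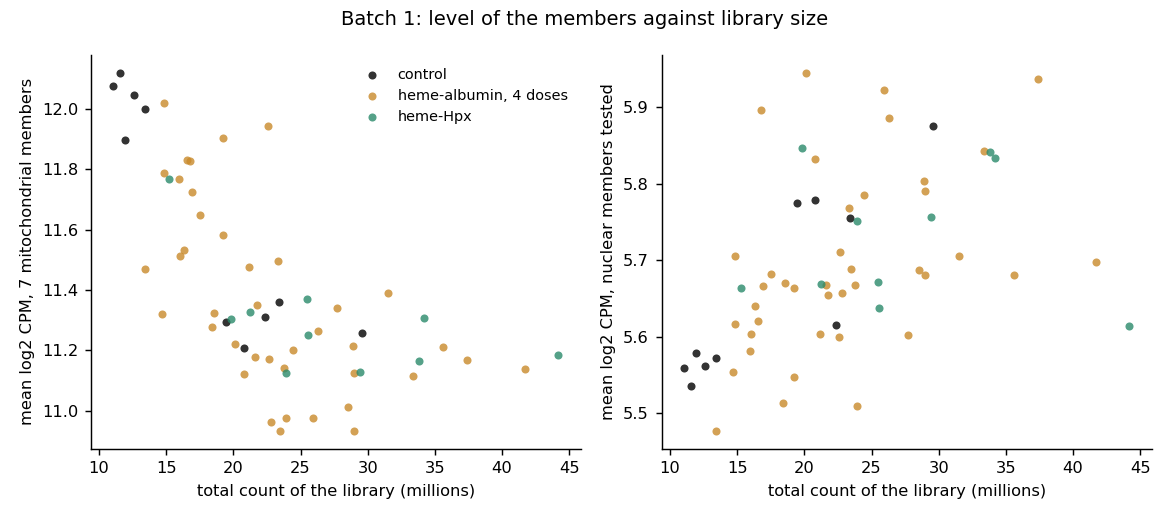
Mean log2 CPM of the 7 mitochondrial members (left) and the nuclear members tested (right) against the total count of each library of batch 1. The 5 smallest libraries, all untreated, have mitochondrial means of 11.90 to 12.12 and nuclear means of 5.54 to 5.58.

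The log2 total count was then added to the fit of batch 1 as a term, an alternative chosen after seeing the data. In that fit, 8 of 9 mitochondrial members were lower with a larger total, with a median of −0.60 per doubling of the total. mt-Nd6 was the member not called, at −0.04 per doubling (SE 0.062, edgeR adjusted p = 0.687). Of the nuclear members, 36 were higher and 8 lower, against 18.9% of all genes higher and 19.4% lower. In batches 2 and 3 the same term called 0 nuclear and 0 mitochondrial members. With this term, 1 of 9 mitochondrial members remained below the threshold at 400 µM, mt-Nd6 at −0.24 (edgeR adjusted p = 0.0443), and the mitochondrial median moved from −0.41 to −0.17. Library size and treatment overlap in this batch, and their parts in the mitochondrial differences cannot be told apart.

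The nuclear members that fell at 400 µM were spread over 4 complexes. Complex I contributed 2 of 37 members, Ndufv3, an accessory subunit of its NADH-oxidising arm, and Ndufb5, an accessory subunit of the membrane arm. Complex III contributed Uqcrh, the hinge protein, complex IV contributed Cox6c, Cox7a1 and Cox7a2, and complex V contributed 1 of the 2 Atp5o identifiers. The Atp5o identifier that fell overlaps exons of Donson on the same strand and matches it at 100% over 287 of 530 bases. The part of Donson reads in its counts was not tested. None of the 4 subunits of complex II, Sdha to Sdhd, passed, and their log2 fold changes lay between −0.03 and +0.03 (edgeR, 0 with an unadjusted p under 0.05).

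Cox7a1, the heart and skeletal muscle isoform of a small complex IV subunit, had the smallest adjusted p of any nuclear member. It had 2.7, 3.48 and 4.63 CPM (lowest, median, highest) in untreated libraries, then medians of 3.61 at 12.5 µM, 3.3 at 50 µM and 2.75 at 200 µM. At 400 µM the values were 1.2, 2.08 and 3.26 CPM, and the difference was −0.77 on the log2 scale (SE 0.144, edgeR adjusted p = 3.11e-05). The groups overlapped, and all libraries at 400 µM were below the untreated median. With library size as a term the difference was −0.82 (edgeR adjusted p = 1.36e-05).

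Some muscle markers were also lower at 400 µM, and their part in the change of Cox7a1 was not tested. The summed level of 6 skeletal and smooth muscle markers was 84.2 to 137 CPM (median 112) in untreated libraries and 51.7 to 93.3 CPM (median 73.9) at 400 µM. At 12.5 µM the sum had a median of 106 CPM, below the untreated one, while the median of Cox7a1 was above it. Of the 4 markers that passed the filter, 2 fell at 400 µM, Acta2 and Tagln, both of smooth muscle. None of the 6 was at 0 in all libraries of a group. Cox7a2, the ubiquitous isoform of the same subunit, had 61.8, 70.6 and 76.2 CPM (lowest, median, highest) in untreated libraries and 52.1, 58.7 and 86.8 CPM at 400 µM, and fell by 0.21 (SE 0.063, edgeR adjusted p = 0.0107).

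Ndufv3 had 74.9, 83.4 and 88.3 CPM (lowest, median, highest) in untreated libraries and 62.7, 72.2 and 87.3 CPM at 400 µM, a log2 difference of −0.16 (SE 0.045, edgeR adjusted p = 0.00543). Uqcrh fell by 0.25 (SE 0.077, edgeR adjusted p = 0.00962), Cox6c by 0.21 (adjusted p = 0.00713) and Ndufb5 by 0.16 (adjusted p = 0.0346). Apart from Cox7a1, the nuclear members that passed thus fell by at most 0.25 on the log2 scale.

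Core subunits lay at similar levels. Ndufs1, the largest iron-sulfur subunit of complex I, had 93.9, 105 and 121 CPM (lowest, median, highest) in untreated libraries and 89, 98.3 and 117 CPM at 400 µM. Sdha, the flavoprotein of complex II, had 217, 259 and 288 against 230, 253 and 271 CPM. Atp5b, the catalytic beta subunit of ATP synthase, had 667, 794 and 927 against 615, 810 and 948 CPM. The ranges of untreated and treated libraries largely coincided for all 3, and none passed the test at 400 µM.

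Across the 4 heme-albumin doses alone, without the untreated slices, the slope per doubling of dose was negative for 78 of 83 nuclear members. The share of all genes with a negative slope is not given here. The nuclear mean log2 CPM had group medians of 5.75, 5.67, 5.67 and 5.63 from 12.5 to 400 µM. In untreated libraries its median was 5.60, so that no dose had a median below the untreated one. The slope passed the test for 12 nuclear members, all lower, against 12.1% of all genes higher and 11% lower. The slope of Cox7a1 was −0.14 per doubling (SE 0.026, edgeR adjusted p = 6.91e-05). Cox4i1, the main isoform of the first nuclear complex IV subunit, had a slope of −0.04 (SE 0.010, edgeR adjusted p = 0.00142). The other 10 were Cox6c, Cox7a2, Uqcrh, Ndufs4, Ndufv3, Ndufc1, Atp5e, Atp5j2 and both Atp5o identifiers, with slopes between −0.06 and −0.03. Of the mitochondrial members, 0 had a slope that passed in edgeR or in DESeq2, and 0 had an unadjusted p under 0.05.

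**Figure D4:**
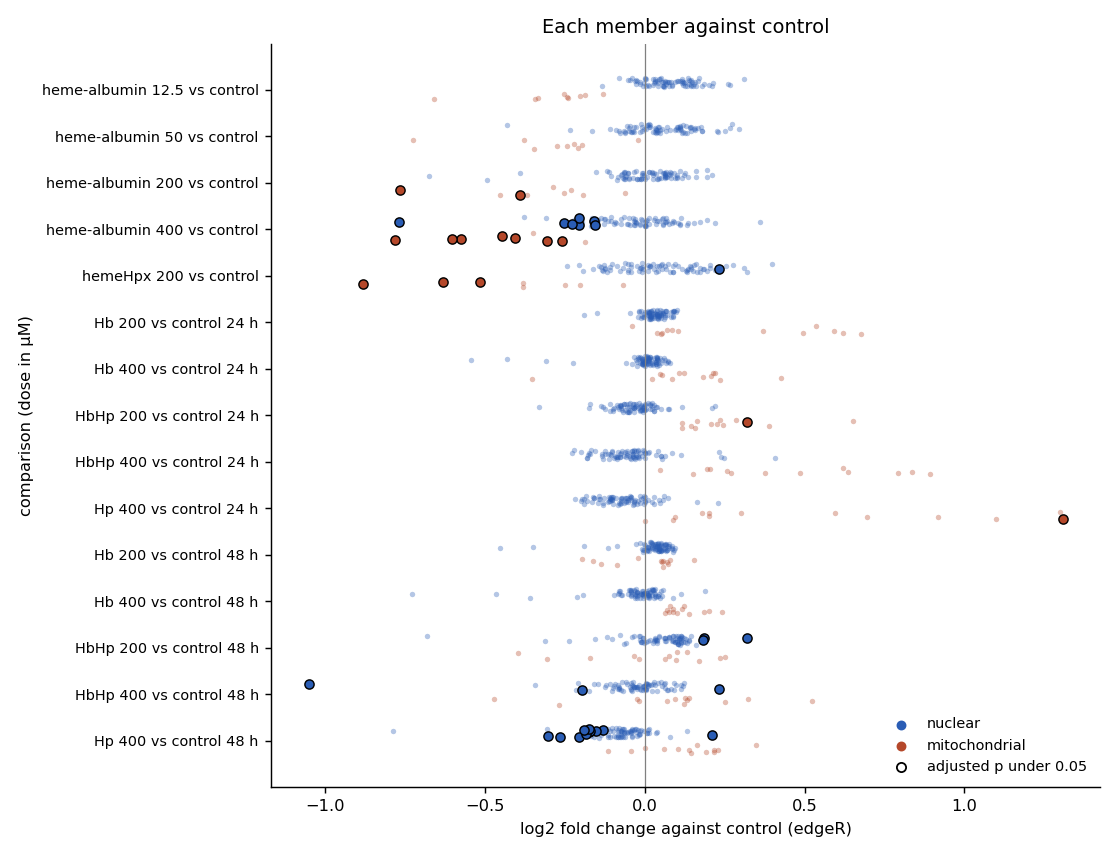
Log2 fold change of each tested member against the untreated slices of the same set and time, nuclear and mitochondrial members apart; Cox8b, at very low counts, is left out. The nuclear members cluster around 0 in every comparison, with a median of −0.03 at 400 µM heme-albumin, whereas the mitochondrial members of batch 1 lie below 0.

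Heme on hemopexin, its high-affinity carrier, was compared with untreated slices and with heme-albumin at the same dose of 200 µM. Against untreated slices, 3 of 9 mitochondrial members fell and 1 of 83 nuclear members rose, where 3.77% of all genes were called higher and 4.44% lower. mt-Nd1 had 2650, 4380 and 6520 CPM (lowest, median, highest) in untreated libraries and 2780, 3120 and 4620 CPM with hemeHpx, and fell by 0.51 (SE 0.170, edgeR adjusted p = 0.0486). mt-Nd2 fell by 0.63 (adjusted p = 0.0466) and mt-Nd3 by 0.88 (adjusted p = 0.0404) in the same edgeR fit. With library size as a term, 0 of the 3 stayed below the threshold in edgeR (all 9 mitochondrial members had a median of −0.02, from −0.38), and DESeq2 without the term called 5.

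Ndufs7, an iron-sulfur subunit of complex I next to the quinone site, was the nuclear member that rose. It had 31.9, 36.8 and 46.2 CPM (lowest, median, highest) in untreated libraries and 37.9, 44.8 and 48.6 CPM with hemeHpx, a log2 difference of +0.23 (SE 0.062, edgeR adjusted p = 0.03). With library size as a term it was +0.18 (adjusted p = 0.487).

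Between hemeHpx and heme-albumin at 200 µM, 0 of 83 nuclear and 0 of 9 mitochondrial members passed in edgeR or DESeq2, although 13% of all genes were called higher and 12.9% lower. At an unadjusted p under 0.05 there were 4 nuclear and 0 mitochondrial members. The median log2 difference was +0.02 for the nuclear and −0.10 for the mitochondrial members.

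Nuclear genes that build or maintain the mitochondrion were described beside the subunits in batch 1. Of 12 tested genes of mitochondrial proteostasis, 5 rose and 0 fell at 400 µM heme-albumin, with 3 up at 200 µM. Hspa9, the matrix Hsp70, rose by 0.61 on the log2 scale at 400 µM (SE 0.053, edgeR adjusted p = 9.06e-14). Lonp1, the matrix protease, rose by 0.35 (SE 0.045, adjusted p = 1.48e-08) and Dnaja3, a partner of Hspa9, by 0.21 (adjusted p = 5.58e-05) in edgeR. The median of the 12 was +0.18.

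Of 15 genes for mitochondrial transcription and replication, 4 rose and 0 fell at 400 µM. Polrmt, the mitochondrial RNA polymerase, rose by 0.37 (SE 0.064, edgeR adjusted p = 8.51e-06), Twnk, the replicative helicase, by 0.37 (adjusted p = 0.000161) and Tefm, the elongation factor, by 0.24 (adjusted p = 0.0238). With hemeHpx, Tfb2m fell by 0.40 (adjusted p = 0.0163) and Tfam, which packages the mitochondrial DNA, by 0.21 (adjusted p = 0.0333, edgeR). Genes of mitochondrial RNA processing counted 4 higher and 1 lower of 15 at 400 µM, with Tbrg4 at +0.30, Trmt10c, a subunit of mitochondrial RNase P, at +0.30, and Hsd17b10, a further subunit of it, at −0.17.

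Assembly factors counted 10 higher and 1 lower of 46 at 400 µM. Sco2, a copper chaperone of complex IV, rose by 0.38 (edgeR adjusted p = 0.000176), Ecsit, a complex I assembly factor, by 0.36 (adjusted p = 0.000191), and Sdhaf4, an assembly factor of complex II, fell by 0.43 (adjusted p = 0.0002). Regulators of mitochondrial biogenesis counted 1 higher and 2 lower of 14: Pprc1 rose by 0.44 (edgeR adjusted p = 1.45e-09), while Ppargc1a fell by 0.36 (adjusted p = 0.027) and Gabpb2 by 0.19 (adjusted p = 0.00484). With hemeHpx, Gabpa and Gabpb1, the subunits of the GABP factor, fell by 0.37 and 0.32 (edgeR adjusted p = 0.0247 and 0.0145). Electron carriers and their synthesis counted 2 higher and 2 lower of 17, and HIF targets 1 higher (Slc2a1, the glucose transporter, +0.46) and 1 lower (Pdk1, −0.60) of 15 rows at 400 µM. These shares stand beside 14.7% of all genes higher and 14.3% lower in that comparison.

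Cell-type markers also moved in batch 1, and their part in the members' values was not tested. Of 8 microglial markers, 7 fell at 200 µM heme-albumin and 4 at 400 µM, with summed levels of 547 to 2290 CPM (median 1030) in untreated libraries and 408 to 1320 (median 773) at 400 µM. Of 8 astrocyte markers, 5 fell at 400 µM, with sums of 7550 to 12000 CPM (median 10900) and 5910 to 9810 (median 7700). Of 12 neuronal markers, 2 rose, and their sums had medians of 613 and 633 CPM. At the same dose 1 of 10 oligodendrocyte lineage markers rose, and 1 of 6 endothelial and 1 of 6 ependymal and choroid plexus markers fell. Markers at 0 in every library of a group were 0 in all lists.

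Several subunits exist as pairs of isoforms, and the general isoform was the higher one throughout on a per-length scale. In untreated libraries of batch 1, Cox4i1 had a median of 302 CPM per kilobase and Cox4i2, the isoform linked to low oxygen, 2.07. Cox6a1 had 252 against 2.24 for Cox6a2, Cox8a 233 against 0.0469 for Cox8b, and Ndufa4 73.8 against 5.97 for Ndufa4l2 (CPM per kilobase). In untreated libraries of batches 2 and 3 the same order held, with 263 against 1.24 for Cox4i1 and Cox4i2 and 91.5 against 4.64 for Cox7a2 and Cox7a1. Among the 3 genes of the ATP synthase c subunit, Atp5g3 was highest with 168, Atp5g2 had 40.9 and Atp5g1 4.43 per kilobase in batch 1. In batches 2 and 3 these values were 174, 91.4 and 15.7. The length used is that of the longest annotated transcript, 862 bases for Atp5g3, 753 for Atp5g2 and 4715 for Atp5g1. In raw counts over all libraries of a set, the medians of Atp5g2 and Atp5g1 were 803 and 582.5 in batch 1. They were 2241.5 and 2288 in batches 2 and 3, where the order of these 2 genes per kilobase rests on the length used.

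Atp5l, a membrane subunit of ATP synthase named here after its values were seen, was low in batch 1, at a median of 0.805 CPM per kilobase against 12.9 in batches 2 and 3. The sets were normalised and fitted apart, and this difference was not tested. Within batch 1 its CPM medians lay between 4.9 and 5.36 in all groups.

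The promoters of nuclear members were read from RefSeq (GRCm38.p6), where 69 of 85 nuclear members matched 68 genes, over the window from 250 bases before to 50 after the start. On either strand, the NRF1 word CGCATGCG was found for 9 of 68 genes (13.2%) against 2.1% of 27025 genes, and the YY1 word AAGATGGCG for 7 (10.3%) against 1.6%. The ETS and GABPA word CCGGAAGT was found for 5 (7.4%) against 4.3%, and the Sp1 word GGGCGG for 28 (41.2%) against 38.2%. Each word was searched on its own, so that matches to different words may share bases, and a match is a description of the sequence only. The NRF1 word lay in the windows of Atp5g2, Atp5j, Atp5k, Atp5l, Cox6a1, Ndufa8, Ndufa11, Uqcr11 and Uqcrc1, and the YY1 word in those of Atp5j, Atp5j2, Ndufa9, Ndufc1, Ndufs4, Ndufs6 and Ndufs7.

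The 250 bases before the start are shown for the following 3 genes, 5′ to 3′ on the strand of the gene, with the NRF1 word in capitals. Atp5g2 (chr15:102671048-102671297, minus strand) and Cox6a1 (chr5:115348959-115349208, minus strand) each hold the NRF1 word, and Cox7a1 (chr7:30183921-30184170, plus strand), the nuclear member that fell most at 400 µM heme-albumin, holds none of the 4 words in this stretch. The Sp1 word, left in lower case, is on the other strand in Cox6a1.
Atp5g2: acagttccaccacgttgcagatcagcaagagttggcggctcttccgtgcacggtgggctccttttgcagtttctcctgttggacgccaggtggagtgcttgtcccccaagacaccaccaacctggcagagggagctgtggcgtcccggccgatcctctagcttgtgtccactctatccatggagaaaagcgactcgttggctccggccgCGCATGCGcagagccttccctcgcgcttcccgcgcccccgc
Cox6a1: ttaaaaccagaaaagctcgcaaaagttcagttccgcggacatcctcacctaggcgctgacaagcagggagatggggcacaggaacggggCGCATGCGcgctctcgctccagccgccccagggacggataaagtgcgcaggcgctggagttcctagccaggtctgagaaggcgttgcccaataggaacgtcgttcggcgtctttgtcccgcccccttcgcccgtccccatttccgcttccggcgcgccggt
Cox7a1: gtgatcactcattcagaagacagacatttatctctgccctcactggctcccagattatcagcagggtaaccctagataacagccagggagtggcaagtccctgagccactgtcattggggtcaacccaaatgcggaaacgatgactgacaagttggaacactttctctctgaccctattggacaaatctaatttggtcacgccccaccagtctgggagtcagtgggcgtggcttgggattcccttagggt

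Free hemoglobin left the subunits without a called change. In edgeR's quasi-likelihood fit of batches 2 and 3, 0 of 82 nuclear and 0 of 13 mitochondrial members passed at 200 µM after 24 h (0.0789% of all genes higher, 0.0182% lower), at 400 µM after 24 h (0.474% and 0.0486%), at 200 µM after 48 h (0.279% and 0.0304%) or at 400 µM after 48 h (0.486% and 0.115%). At an unadjusted p under 0.05 there were 1, 1, 0 and 4 nuclear and 4, 1, 0 and 0 mitochondrial members in this order, and DESeq2 called 0 of either kind. The nuclear medians were +0.04, +0.01, +0.04 and −0.004 on the log2 scale. Few genes of any kind passed in these 4 comparisons.

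On the log2 CPM scale, the 7 mitochondrial genes averaged 10.21, 10.75 and 10.86 (lowest, median, highest) in untreated libraries at 24 h, and 10.40, 10.71 and 10.89 with 400 µM Hb. At 48 h these values were 10.48, 10.65 and 10.84 in untreated libraries and 10.43, 10.75 and 11.21 with 400 µM Hb. The nuclear means lay between 5.58 and 5.89 in untreated and Hb libraries at both times. Treated and untreated medians lay close together, with ranges that overlapped widely.

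**Figure D5:**
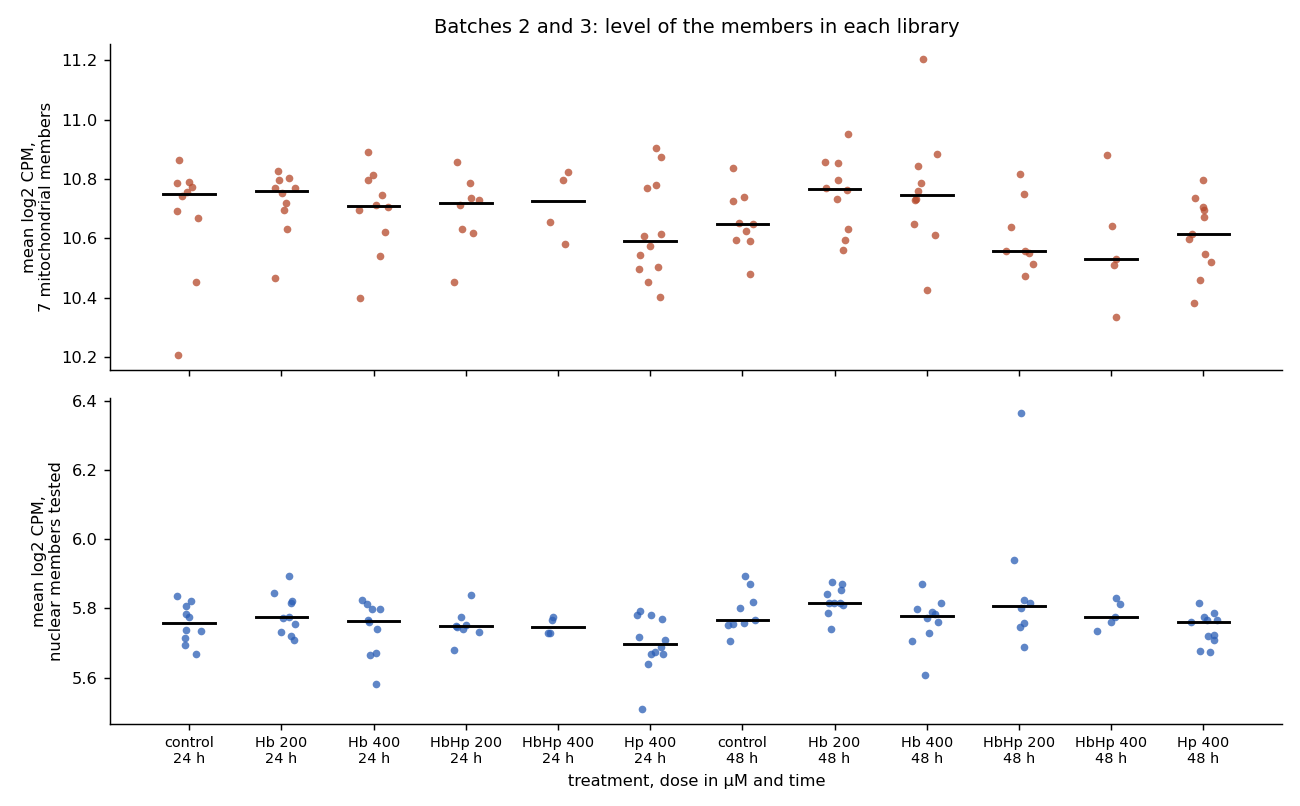
Mean log2 CPM of the 7 mitochondrial members (top) and of the nuclear members tested (bottom) in each library of batches 2 and 3, by treatment and time, with a bar at the group median. All groups overlap, and 1 HbHp 200 µM library at 48 h stands apart with a nuclear mean of 6.37.

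With HbHp, a called change after 24 h was limited to mt-Nd2 at 200 µM, among 13 mitochondrial and 82 nuclear members, where 1.66% of all genes were higher and 0.273% lower (0 nuclear members passed in edgeR or DESeq2, 1 had an unadjusted p under 0.05). mt-Nd2 was +0.32 in the edgeR fit (SE 0.094, adjusted p = 0.0498), although its unadjusted CPM was not higher, with 954, 1850 and 2000 (lowest, median, highest) in untreated and 1440, 1630 and 1780 in HbHp libraries. Without batch and prefix terms the difference was −0.07, and without untreated replicate 11 at 24 h it was +0.22 (edgeR adjusted p = 0.334). At 400 µM after 24 h, 0 nuclear and 0 mitochondrial members passed in edgeR or DESeq2 (8 and 6 with an unadjusted p under 0.05), against 3.1% higher and 2.06% lower.

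Hp alone at 400 µM after 24 h had 1 mitochondrial member higher and 0 nuclear ones (19 with an unadjusted p under 0.05, 1 lower by DESeq2), where 0.474% of all genes were higher and 0.231% lower. mt-Atp6, the proton-channel subunit of ATP synthase, was +1.31 in the edgeR fit (SE 0.339, adjusted p = 0.042). Its raw counts were 27 to 977 in untreated and 42 to 432 in Hp libraries, with CPM medians of 10.9 and 7.62, and the fitted sign turned to −0.40 without batch and prefix terms. DESeq2 called 5 mitochondrial members higher with the same terms. All Hp libraries were in batch 3, whereas most untreated libraries at 24 h were in batch 2. In untreated libraries, mt-Atp6 had a median of 20.0 CPM per kilobase in batch 2 and 4.38 in batch 3.

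After 48 h, HbHp at 200 µM had 3 nuclear members higher and 0 lower, against 7.04% of all genes higher and 4.85% lower, and 0 mitochondrial members (2 with an unadjusted p under 0.05, 0 by DESeq2). Sdhd, a membrane anchor of complex II, was +0.19 (edgeR adjusted p = 0.0367), with CPM of 66.9, 80 and 85.7 (lowest, median, highest) in untreated libraries and 76.7, 82.9 and 125 in HbHp libraries. Ndufb6, a membrane-arm subunit of complex I, was +0.18 (adjusted p = 0.0334). Both rested on HbHp 200 µM 48 h replicate 1, without which they were +0.09 and +0.10 and did not pass, and the nuclear median moved from +0.08 to −0.02.

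Atp5s was higher in all 3 comparisons of HbHp or Hp with untreated slices at 48 h, which share the same untreated libraries. Its CPM was 7.41, 8.04 and 9.27 (lowest, median, highest) in untreated libraries, 8.01, 9.11 and 11.8 with 200 µM HbHp, 7.36, 9.14 and 10.0 with 400 µM HbHp and 7.5, 8.55 and 9.83 with 400 µM Hp. The log2 differences were +0.32 (SE 0.074, edgeR adjusted p = 0.00182), +0.23 (SE 0.082, adjusted p = 0.0491) and +0.21 (SE 0.067, adjusted p = 0.032). Without HbHp 200 µM 48 h replicate 1 the first was +0.26 (adjusted p = 0.015). At 24 h the same comparisons gave +0.22, +0.24 and +0.17 and did not pass (edgeR adjusted p = 0.104, 0.0865 and 0.252).

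HbHp at 400 µM after 48 h had 1 nuclear member higher (Atp5s) and 2 lower, against 7.39% of all genes higher and 4.56% lower, and 0 mitochondrial members passed (1 with an unadjusted p under 0.05, 0 by DESeq2). Cox4i2 had 0.908, 1.83 and 3.83 CPM (lowest, median, highest) in untreated libraries and 0.233, 0.948 and 1.2 in HbHp libraries, a difference of −1.05 (SE 0.373, edgeR adjusted p = 0.0494). Ndufv3 was −0.20 (SE 0.061, adjusted p = 0.0211), with 68.2, 72.8 and 80.3 CPM in untreated and 62.5, 64.5 and 66.6 CPM in HbHp libraries, which did not overlap.

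Hp alone at 400 µM after 48 h had 10 nuclear members lower and 1 higher of 82, against 4.88% of all genes higher and 5.88% lower. Of 17 nuclear complex V members tested, 6 fell: Atp5g2 by 0.27, Atp5g3 by 0.20, Atp5b by 0.18, Atp5o by 0.18, Atp5a1 by 0.17 and Atp5d by 0.15 on the log2 scale. Uqcrc1, a core protein of complex III, fell by 0.19 (SE 0.045, edgeR adjusted p = 0.00316), with 136, 155 and 164 CPM (lowest, median, highest) in untreated and 127, 135 and 150 CPM in Hp libraries. Atp5g2 had 58.7, 76.4 and 83.3 CPM in untreated and 59.9, 67.2 and 74.7 CPM in Hp libraries (SE 0.064, edgeR adjusted p = 0.00363). Ndufc2 (−0.30), Ndufv3 (−0.17) and Cox5a (−0.13) completed the list, and 0 mitochondrial members passed (3 with an unadjusted p under 0.05, 0 by DESeq2). The ranges of treated and untreated libraries overlapped for both Uqcrc1 and Atp5g2.

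The 48 h calls did not pass within batch 3 or within prefix E2, in fits with fewer libraries. With libraries of batch 3 only, or of prefix E2 only, 0 nuclear members passed in edgeR in any of the 3 comparisons with untreated slices, each fit having 2 untreated libraries at 48 h. The 10 members that fell with Hp were at −0.15 to −0.10 in batch 3, and in E2 libraries 9 of them were at −0.22 to −0.05 and Ndufc2 at +0.11. Between prefixes, E2 libraries had 19 nuclear members higher and 27 lower and 3 mitochondrial members higher and 1 lower than E1 libraries, against 36.1% of all genes higher and 31.9% lower.

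Direct comparisons of the complexes with their parts had few members. HbHp against Hb at 200 µM gave 0 nuclear and 0 mitochondrial members after 24 h in edgeR (8 and 1 with an unadjusted p under 0.05, 1 nuclear member lower by DESeq2), against 0.413% of all genes higher and 0.194% lower. After 48 h, Atp5s was +0.31 (SE 0.073, edgeR adjusted p = 0.00594) and was the sole member called (0 mitochondrial ones had an unadjusted p under 0.05, and DESeq2 called 0 of them), against 3.14% higher and 1.84% lower. HbHp against Hp at 400 µM gave 0 members in edgeR and DESeq2 at 24 h (0.522% of genes higher, 0.0971% lower, 0 nuclear and 0 mitochondrial members with an unadjusted p under 0.05) and at 48 h (1.03% and 0.413%, with 7 and 0).

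Untreated slices kept for 48 h instead of 24 h had 1 nuclear member higher and 0 mitochondrial members called (0 with an unadjusted p under 0.05, 0 by DESeq2), against 1.66% of all genes higher and 2.85% lower. That member was Cox4i2, with 0.549, 0.909 and 2.07 CPM (lowest, median, highest) at 24 h and 0.908, 1.83 and 3.83 CPM at 48 h, a difference of +0.83 (SE 0.255, edgeR adjusted p = 0.0419). Of 15 tested rows for HIF targets, 4 were also higher at 48 h. Tests of whether a treatment's effect differed between 24 and 48 h called 0 members for any of the 5 treatments and doses in edgeR, with at most 14 nuclear members (HbHp at 200 µM) at an unadjusted p under 0.05.

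The other mitochondrial lists moved little with Hb and more with the batch 3 treatments at 48 h. Carriers of the chain had 6 of 17 lower with Hp, among them Slc25a5, an ADP/ATP carrier, at −0.26 (edgeR adjusted p = 0.0267). With 400 µM HbHp at 48 h, Afg3l2 and Yme1l1, inner-membrane proteases, rose by 0.42 and 0.29 (edgeR adjusted p = 0.000143 and 0.000134), and with Hp they rose by 0.22 and 0.17. Of the 12 tested genes of mitochondrial proteostasis, 4 rose and 0 fell with 200 µM HbHp at 48 h (7.04% of all genes higher and 4.85% lower). At 400 µM HbHp, 2 rose and 0 fell (7.39% and 4.56%). With Hp, 2 rose and 3 fell (4.88% and 5.88%), with a median of −0.11. Between HbHp and Hb at 200 µM after 48 h, 3 were higher and 0 lower (3.14% and 1.84%). The microglial marker sum was 639 to 4120 CPM (median 1760) in untreated libraries and 742 to 4080 (median 2870) with Hp at 48 h, 0 of 8 of these markers were called in edgeR with Hp, their median log2 fold change was +0.04, and their part was not tested.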

How the data were processed

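Poly(A) RNA of brain slices was sequenced (Illumina TruSeq mRNA). The deposited values are raw counts per gene, which the authors made with featureCounts on GRCm39 per the submitters' processing notes. Gene symbols came from GENCODE M21. Batch 1 and batches 2 and 3 were fitted apart with edgeR 4.0.16 in R 4.3.3: filterByExpr (minimum count 10, minimum total 15), TMM scaling, a quasi-likelihood test and Benjamini-Hochberg adjustment over all genes at 0.05. Batches 2 and 3 had batch and library-name prefix as terms. Per-library levels are means of log2 CPM with 0.5 added to each count. Copies were searched with blastn 2.17.0. The fits were tested on simulated data. No pair of libraries of a group was identical or within sampling noise.

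Named were all mitochondrial members, core subunits, isoform pairs and, per comparison, up to 5 members higher and 5 lower among those that passed at a mean of at least 1 CPM (up to 3 in the other lists); further members that passed are listed by name. The members and lists were chosen with earlier results of these data known. Alternatives were DESeq2 1.42.0, RLE scaling, other filters, scaling without mitochondrial genes, a GC and length correction, a replicate block, other batch terms and left-out libraries. The 21 libraries without a label-defined group were left out.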

Additional observations from a re-analysis of the deposited data

Results flagged for a closer look

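Of 48 checks of a single library's gap to its group (the mitochondrial share, the mitochondrial mean and the nuclear mean in groups of 4 to 10 libraries), 6 exceeded Dixon's 95% critical value, where chance gives about 1 in 20. The hemeHpx 200 µM replicate 8 had a mitochondrial share of 4.514% of counts, against 2.901% to 3.367% in the other 9, and a mean log2 CPM of the 7 mitochondrial members of 11.769, against 11.124 to 11.37. The heme-albumin 400 µM replicate 8 had a nuclear mean log2 CPM of 5.896, against 5.509 to 5.71 in the others.

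In batches 2 and 3, untreated replicate 11 at 24 h had a mitochondrial share of 1.899%, against 2.379% to 2.837%, and Hb 400 µM replicate 3 at 48 h had 3.589%, against 2.292% to 2.805%. The HbHp 200 µM replicate 1 at 48 h had a nuclear mean of 6.365 log2 CPM, against 5.688 to 5.939 in the other 7 libraries, and the calls of Sdhd and Ndufb6 at 48 h rested on it. What sets these libraries apart was not tested.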

How the results depend on the processing

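Counts of calls are given as higher plus lower members, nuclear first where both occur. In batch 1, DESeq2 called 1 nuclear member at 200 µM heme-albumin and 5 mitochondrial members with hemeHpx. Without a count filter, the mitochondrial calls were 1 at 200 µM, 4 at 400 µM and 0 with hemeHpx, the nuclear ones 0 with hemeHpx and 6 for the slope. With at least 10 counts in every library, 1 nuclear and 1 mitochondrial member passed at 200 µM. With GC content and length corrected, these were 1 and 1 at 200 µM, 15 and 3 at 400 µM and 0 and 0 with hemeHpx, and 3 nuclear members passed between hemeHpx and heme-albumin. With log2 total count as a term there were 1 and 1 at 200 µM, 1 mitochondrial member at 400 µM, 0 and 0 with hemeHpx, and 1 mitochondrial member for the slope.

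Library-name codes served as a replicate block. Same-code libraries of batch 1 did not pair by their deviations (169 pairs, median correlation 0.192, lowest −0.657, 55.6% over 0.1, others −0.01), nor did those of batches 2 and 3 (291 pairs, 0.061, −0.607 and 42.6%, others −0.005). With the replicate block, batch 1 had 2 and 4 calls at 200 µM, 15 nuclear calls at 400 µM, 19 and 7 with hemeHpx, 6 nuclear between hemeHpx and heme-albumin and 21 nuclear for the slope. In batches 2 and 3 the block gave 0 mitochondrial calls for HbHp 200 µM and Hp and 1 for HbHp 400 µM at 24 h, 8 and 1 for HbHp 200 µM, 1 nuclear for HbHp 400 µM and 5 nuclear for Hp at 48 h, 3 nuclear for HbHp against Hb at 48 h, 0 for time in untreated slices, and 13 and 2 between prefixes.

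DESeq2 called in the other set 1 and 5 members for Hp at 24 h, 1 nuclear for HbHp against Hb at 24 h, 5 nuclear for HbHp 400 µM at 48 h and 2 nuclear for time. For HbHp 200 µM at 24 h the mitochondrial call was lost, to 0, with RLE scaling, with no filter, with at least 10 counts in every library, with scaling without mitochondrial genes and with the GC content and length correction. For HbHp against Hb at 24 h, 1 nuclear member passed with RLE scaling, with at least 10 counts and with scaling without mitochondrial genes. With no filter, 1 nuclear member passed for HbHp 400 µM at 48 h and 0 for time, and with at least 10 counts 0 for time. The GC content and length correction gave 2 nuclear calls for HbHp 400 µM and 0 mitochondrial for Hp at 24 h, 1, 1 and 18 nuclear for HbHp 200 µM, HbHp 400 µM and Hp at 48 h, 0 for HbHp against Hb and 1 for HbHp against Hp at 48 h, and 2 for time.

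With a batch term only, the nuclear calls were 1 for HbHp 200 µM, 1 for HbHp 400 µM and 2 for HbHp against Hb at 24 h, 10 for HbHp 200 µM, 8 for HbHp 400 µM and 5 for HbHp against Hb at 48 h, and 0 for time. The mitochondrial ones were 3 for HbHp 400 µM and 0 for Hp at 24 h, and 1 and 1 for HbHp 200 and 400 µM at 48 h. With no batch or prefix term, the nuclear calls were 1 for HbHp 200 µM, 2 for HbHp 400 µM, 1 for Hp and 4 for HbHp against Hb at 24 h, 30, 8 and 10 for HbHp 200 µM, HbHp 400 µM and HbHp against Hb at 48 h, and 0 for time. The mitochondrial ones were 4, 1, 0 and 5 at 24 h (HbHp 200 µM, HbHp 400 µM, Hp, HbHp against Hb) and 7, 5, 6 and 7 at 48 h in the same order. There, mt-Nd2 with HbHp 200 µM was −0.07 and mt-Atp6 with Hp −0.40 at 24 h, both reversed.

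With E2 libraries only, 1 mitochondrial member passed for HbHp 400 µM and 0 for Hp at 24 h, and 0 nuclear members for HbHp 200 µM, HbHp 400 µM, Hp and HbHp against Hb at 48 h and for time. Ndufc2 with Hp at 48 h was +0.11 there, reversed (edgeR adjusted p = 0.927). With batch 3 only, the mitochondrial calls at 24 h were 3 for HbHp 200 µM, 1 for HbHp 400 µM and 0 for Hp, 1 nuclear member passed for HbHp against Hb at 24 h, 0 for HbHp 200 µM, HbHp 400 µM, Hp and HbHp against Hb at 48 h and 0 for time, and 29 and 2 between prefixes. Leaving out 1 library gave 1 to 3 nuclear calls for HbHp 200 µM (1 without untreated replicate 7) and 1 to 4 for HbHp 400 µM at 48 h (1 without HbHp 400 µM replicate 1 or 4), 0 to 1 mitochondrial calls for HbHp 200 µM at 24 h and 2 nuclear calls for HbHp against Hb at 48 h without HbHp 200 µM replicate 1.

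Of 537 values of single members under alternatives, 386 kept direction and side of the threshold, 148 kept direction only and 3 reversed, and of 573 medians 35 moved by more than their spread. Cox7a1 at 400 µM heme-albumin passed under each alternative run for it. Unscaled library sizes moved group differences of the 7 mitochondrial genes' mean by at most 0.068 and of the nuclear mean by at most 0.095 on the log2 scale. Averaging all listed members instead moved them by at most 0.688 and 0.024. Leaving out libraries of groups of 10 was not run. The causes of these changes were not tested beyond what each setting leaves out. The low counts of 6 mitochondrial members limit any statement on them.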

Other observations

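The library names of batch 1 carry codes that recur across treatments, and the labels do not say what a code stands for. Within 6 of 9 codes that had exactly 1 library in each group, the mean log2 CPM of the 7 mitochondrial members was lower than in the untreated library of the same code in 6 of 6 codes at 12.5 µM heme-albumin, 5 of 6 at 50 µM, 6 of 6 at 200 µM, 5 of 6 at 400 µM and 6 of 6 with hemeHpx. The differences at 400 µM ranged from −0.80 to +0.05 on the log2 scale, and those with hemeHpx from −0.87 to −0.03.

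The untreated level itself differed between codes and also within code W1. It was 12.05 for code M1, 12.08 for M3 and 12.12 for M5, and 11.29 for M2, 11.21 for M4 and 11.26 for W5. Total counts were 11038484 to 12600329 in the untreated libraries of M1, M3 and M5, and 19414814 to 29576977 in those of M2, M4 and W5. The 2 untreated libraries of W1 had 11.312 (total 22334266) and 11.999 (total 13393773). In the codes with a high untreated level the 400 µM libraries had 11.48 (M1), 11.35 (M3) and 11.32 (M5), and in those with a low one 11.34 (M2), 10.93 (M4) and 11.01 (W5). Each of the codes with 1 library in each group gives 1 value per group, and no test was run on them.

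The 21 libraries without a label-defined group had mitochondrial shares from 1.99% to 2.98% (median 2.17%) and nuclear shares from 0.60% to 0.74% (median 0.65%) of counts.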
